A study of Homo sapiens with 24 samples.

Results

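Of the 24 arrays of the series, 6 had almost no signal for ARMCX3, a gene for an armadillo-repeat protein of the outer mitochondrial membrane. These 6 were chosen by their own measured values, with the brightest ARMCX3 probe set below 7 on the log2 scale. They were then split at 11.6 on the single TACC3 probe set used, which left 3 arrays with low and 3 with high TACC3. All arrays came from RT112, an established human bladder cancer line, transduced with a doxycycline-inducible short hairpin RNA. The hairpin targeted EGFP, a jellyfish gene that serves as a control target, or FGFR3 (hairpins 2-4, 4-1 and 6-16). Cells of each of these 4 lines were cultured in 1% serum with or without doxycycline at 1 µg/ml for 48 h, with 3 arrays per labelled group. The sources used here do not say whether a line was 1 clone or a pool, or whether replicates were separate cultures, so spread between arrays may be technical.

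The labels of the 6 arrays did not follow the split. The low-TACC3 arrays were labelled hairpin 2-4 without doxycycline (replicate 2), hairpin 4-1 without doxycycline (replicate 1) and hairpin 6-16 with doxycycline (replicate 2). The high-TACC3 arrays were labelled hairpin 6-16 without doxycycline (replicate 2), EGFP hairpin without doxycycline (replicate 2) and hairpin 4-1 with doxycycline (replicate 2). Values per array are given in these orders throughout. Of the 6 arrays 5 carried the replicate number 2, all 3 of the high-TACC3 set among them. Each set of 3 held 2 arrays labelled without and 1 labelled with doxycycline, so the sets compare measured states of these libraries and not a labelled treatment. Because the arrays were selected on their readout, every value set between them is a description without a test. The log2 difference is always the mean of the 3 low-TACC3 arrays minus the mean of the 3 high-TACC3 arrays, and SD is over 3 arrays.

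FGFR3 is a receptor tyrosine kinase that is often mutated or fused in urothelial cancer, and it signals through RAS and the ERK kinases to transcription factors and feedback phosphatases. RT112 is known to carry a fusion of FGFR3 to TACC3, which joins the kinase to the coiled-coil end of a mitotic spindle protein. TACC3 itself is also a gene of dividing cells, so its messenger RNA can come from the fusion or from the intact gene, and a probe set in the shared end cannot tell them apart.

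ARMCX3 had log2 levels of 4.68, 4.25 and 4.79 on the low-TACC3 arrays and 4.87, 4.93 and 4.63 on the high-TACC3 arrays, and these ranges overlapped. The other 18 arrays lay between 9.45 and 10.31, so no array was near the threshold of 7. Its dimmer probe set had means of 3.79 and 3.75 on the low-TACC3 and high-TACC3 arrays and lay at 8.63 to 9.76 on the others. TACC3 had log2 levels of 10.49, 10.79 and 10.64 against 11.82, 11.96 and 11.94, a log2 difference of -1.27. The array nearest below the TACC3 threshold was thus at 10.79 and the nearest above it at 11.82. The 3 low arrays were also below all 18 arrays outside the selection, which ran from 11.31 to 12.62.

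FGFR3 was not used in the selection, but the fusion joins it to TACC3, so a split on TACC3 may not be independent of FGFR3. Its brighter probe set had log2 levels of 11.85, 11.83 and 11.96 on the low-TACC3 arrays and 12.22, 12.22 and 12.19 on the high-TACC3 arrays, a log2 difference of -0.33. Its dimmer probe set had 8.71, 8.96 and 8.91 against 10.48, 10.58 and 10.59, a log2 difference of -1.69. Both probe sets were lower on all 3 low-TACC3 arrays, without overlap, and by unequal amounts, and the mean of both gave -1.01. On the dimmer probe set the 3 low arrays again lay below all 18 others, which ran from 9.19 to 11.20, whereas on the brighter one they lay inside the range of the others (11.13 to 12.34).

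**Figure D1:**
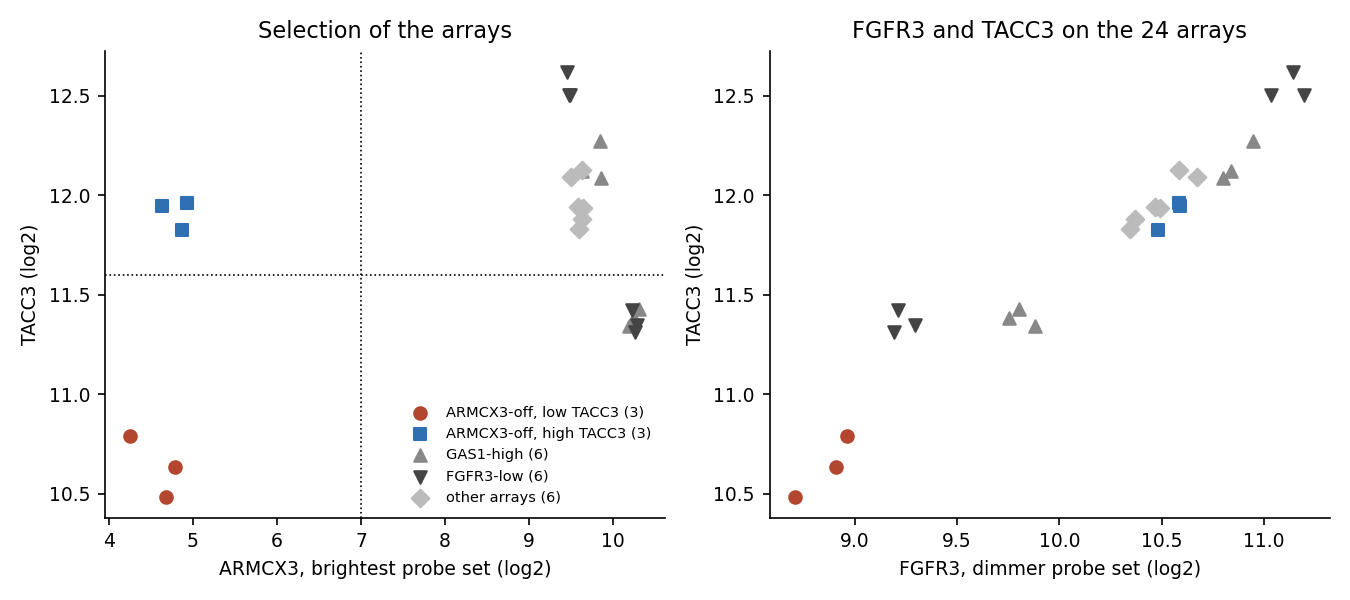
Log2 level of TACC3 (y axes) against the log2 levels of the brightest ARMCX3 probe set (left) and the dimmer FGFR3 probe set (right) on all 24 arrays, 1 point per array, with the selected arrays in colour, sets of other arrays in grey and the thresholds of the selection as dotted lines. The 6 selected arrays lie far below the others for ARMCX3, and the 3 low-TACC3 arrays lie lowest of all 24 for TACC3 and the dimmer FGFR3 probe set.

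The arrays of each set resembled each other closely. Pearson correlations over all genes were 0.9984 to 0.9985 within the low-TACC3 set, 0.9973 to 0.9985 within the high-TACC3 set and 0.9913 to 0.9929 between the sets. Correlations with the other 18 arrays were 0.9823 to 0.9904 for the low and 0.9855 to 0.9930 for the high set. These are descriptions over genes of arrays that share 1 platform and 1 normalization. The array's degradation controls moved with the split. The excess of 3′ over 5′ ACTB signal was 1.17, 1.01 and 1.09 on the low-TACC3 and 0.82, 0.87 and 0.79 on the high-TACC3 arrays, and that of GAPDH was 0.37, 0.37 and 0.42 against 0.28, 0.26 and 0.29. The low-TACC3 arrays had the higher excess for both controls without overlap. On the other 18 arrays the excess ran from 0.70 to 1.06 for ACTB and from 0.20 to 0.38 for GAPDH. The part of RNA quality in the differences below was not tested.

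The epithelial identity of the line was plain on both sets. All 7 epithelial and urothelial markers had mean log2 levels from 12.48 for KRT8 to 13.80 for KRT18, and the log2 of their summed level was 16.11 to 16.15 on the low-TACC3 and 16.06 to 16.09 on the high-TACC3 arrays. Of 10 fibroblast markers, LUM had 13.37 and POSTN, the dimmest, 4.95, with a summed log2 level of 13.68 to 13.74 against 13.39 to 13.56. Only LUM, at 13.49, 13.56 and 13.54 against 13.36, 13.13 and 13.16, was higher without overlap, and PDGFRB was lower by a log2 difference of -0.06. The 10 leukocyte markers ran from 5.35 for TYROBP to 8.47 for CD79A, with summed log2 levels of 10.53 to 10.63 against 10.61 to 10.71. The 6 endothelial markers ran from 5.36 for KDR to 9.41 for PECAM1, with 10.35 to 10.49 against 10.55 to 10.65. RMA levels have no zero, so none of these markers is listed at 0, and the part of other cell types in the differences was not tested. In bulk RNA, fewer cells of a kind and less RNA per cell cannot be told apart.

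Over all 19775 genes the sets differed in many small ways. Of them, 2805 (14.2%) were lower and 4302 (21.8%) higher on all 3 low-TACC3 arrays than on any high-TACC3 array, which is called no overlap below, and the median log2 difference was 0.0069. With a difference of at least 2-fold as well, 93 genes (0.47%) were lower and 61 (0.308%) higher. The split was made on a gene of these same arrays, so nothing is read from these counts. Counts for gene lists below are likewise descriptions, to be set against these shares of all genes. The labelled comparison that the study design implies, the mean doxycycline change over the 3 FGFR3 hairpin lines, is a separate matter. It did not subtract the doxycycline change of the EGFP hairpin line, whose arrays entered only the estimate of spread. In that comparison limma called 0 of 19775 genes (0%) with Benjamini-Hochberg adjustment, with 806 at an unadjusted p under 0.05 and a smallest adjusted p of 0.9998. All 121 genes singled out for description had changes between -0.42 and 0.70 there, and 0 passed. On its brighter probe set the hairpin target was not lower under the label. FGFR3 had a log2 change of 0.11 (SE 0.18) with doxycycline on that probe set. TACC3 had one of -0.04 (SE 0.26), with a limma adjusted p of 0.9998 for each gene. The dimmer FGFR3 probe set was not fitted by itself, so these values do not speak for it. Since each set of 3 like arrays carried 3 different labels, it is not certain that the labels match the hybridised samples, and a count of 0 under these labels does not show that FGFR3 knockdown left these genes unchanged.

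Genes that report ERK signalling were mostly lower with low TACC3. Of 25 measured members, 18 were lower and 4 higher without overlap, 5 lower and 1 higher at least 2-fold, with a median log2 difference of -0.38. DUSP6, the phosphatase that switches off ERK, had log2 levels of 10.73, 10.76 and 10.87 against 12.73, 12.50 and 12.62, a log2 difference of -1.83 or 3.55-fold. PHLDA1, a growth-factor-induced gene, had 9.59, 9.45 and 9.48 against 11.18, 11.10 and 11.15, a log2 difference of -1.64. For both genes every low-TACC3 array lay more than 1 log2 unit below every high-TACC3 array, and below the lowest of the other 18 arrays (10.93 for DUSP6 and 10.32 for PHLDA1).

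The ETS factors of this pathway behaved unequally. ETV4 had log2 levels of 8.69, 8.93 and 8.77 against 9.84, 9.96 and 10.07, a log2 difference of -1.16. ETV5 had 8.08, 7.89 and 8.08 against 9.03, 9.06 and 9.10, a log2 difference of -1.04, while levels of ETV1 overlapped between the sets, with a log2 difference of -0.07. DUSP5, a nuclear ERK phosphatase, had 9.18, 9.26 and 9.15 against 10.29, 10.31 and 10.30, a log2 difference of -1.10. The feedback inhibitors were lower by less. SPRED2, SPRED1, SPRY4, SPRY2 and SPRY1 had log2 differences of -0.67, -0.58, -0.42, -0.37 and -0.28, and MYC had -0.37. The 4 members that were higher without overlap were EPHA4 at 1.07 and the immediate-early genes EGR1 at 0.31, JUNB at 0.17 and IER2 at 0.11. FOS overlapped, at -0.06.

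Other receptors of the line did not move one way. Of 11 EGFR family receptors and ligands, 5 were lower and 4 higher without overlap, with a median log2 difference of -0.07. HBEGF, a ligand of EGFR, had log2 levels of 8.99, 9.10 and 9.10 against 10.11, 9.86 and 9.92, a log2 difference of -0.90. EGFR had 11.00, 10.71 and 10.84 against 11.48, 11.42 and 11.39, a log2 difference of -0.58, and its feedback inhibitor ERRFI1 had -0.56. ERBB2 was higher instead, at 11.88, 12.07 and 11.90 against 11.40, 11.46 and 11.49, a log2 difference of 0.50. ERBB3 and ERBB4 were higher as well, by 0.31 and 0.27. Of 9 other FGF receptors, ligands and binding proteins, FGFBP1 and FGFRL1 were lower and FGFR2 higher without overlap, with a median of -0.03. FGFBP1, a secreted carrier that frees FGFs bound to matrix, had 8.92, 9.04 and 9.01 against 10.16, 10.20 and 10.32, a log2 difference of -1.23. FGFR2 had a log2 difference of 0.66 and FGFR1 one of -0.03. For HBEGF, EGFR, ERBB2 and FGFR2, the mean of all probe sets gave smaller log2 differences of -0.46, -0.26, 0.12 and 0.20, and for EGFR, ERBB2 and FGFR2 the probe sets disagreed in sign.

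**Figure D2:**
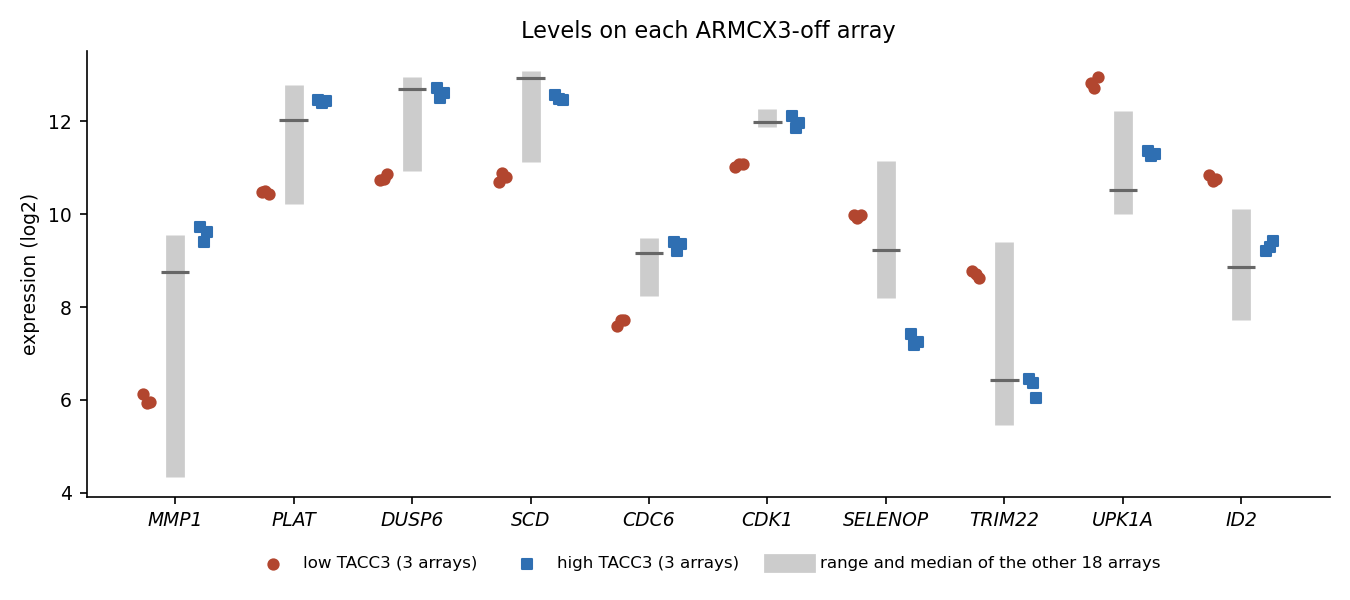
Log2 levels of 10 of the described genes on the 3 low-TACC3 and the 3 high-TACC3 arrays, 1 point per array, with the range and median of the other 18 arrays in grey. DUSP6, at 10.73 to 10.87 against 12.50 to 12.73, lies below the grey range with low TACC3, and UPK1A, at 12.73 to 12.97 against 11.25 to 11.36, lies above it.

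Genes of DNA replication and of mitosis were lower with low TACC3 throughout both lists. In the list of G1/S and DNA replication all 25 genes on the array were lower without overlap, 13 of them at least 2-fold, with a median log2 difference of -1.04, and all 22 genes of G2/M and mitosis were lower without overlap, none of them 2-fold, with a median of -0.77. TACC3 belongs to the genes of dividing cells, so a split made on it is not independent of these lists. Promoter sequences of these genes are shown here because their classes carry different short motifs. They come from RefSeq's promoter table for GRCh38.p14, which held 22 of the 25 and 19 of the 22 genes, and the 250 bases before each start were searched on both strands. The E2F motif was searched as TTTCCCGC, TTTCGCGC, TTTGCCGC and TTTGGCGC. The CHR motif, the cell cycle genes homology region, was searched as TTTGAA. Each window below has 80 bases, 5′ to 3′ along the gene, with every E2F match in capitals for UHRF1, MCM6, GINS2 and MCM7, and every CHR match in capitals for CDK1, BUB1B and MKI67.
UHRF1, chr19:4909421-4909500, plus strand: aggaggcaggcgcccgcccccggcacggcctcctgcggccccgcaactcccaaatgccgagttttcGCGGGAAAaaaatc
MCM6, chr2:135876486-135876565, minus strand: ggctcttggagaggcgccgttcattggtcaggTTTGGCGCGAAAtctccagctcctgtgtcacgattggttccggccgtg
GINS2, chr16:85688955-85689034, minus strand: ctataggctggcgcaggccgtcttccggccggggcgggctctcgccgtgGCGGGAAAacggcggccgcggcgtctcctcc
MCM7, chr7:100101398-100101477, minus strand: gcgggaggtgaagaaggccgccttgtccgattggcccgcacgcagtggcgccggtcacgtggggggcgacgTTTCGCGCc
CDK1, chr10:60778133-60778212, plus strand: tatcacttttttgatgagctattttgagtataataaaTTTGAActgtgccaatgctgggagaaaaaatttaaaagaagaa
BUB1B, chr15:40160989-40161068, plus strand: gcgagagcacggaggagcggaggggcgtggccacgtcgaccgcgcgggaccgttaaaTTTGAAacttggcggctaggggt
MKI67, chr10:128126424-128126503, minus strand: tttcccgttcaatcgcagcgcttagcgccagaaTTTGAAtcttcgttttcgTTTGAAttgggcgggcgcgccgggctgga

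The E2F letters were found in 12 of 22 G1/S promoters (54.5%), in 1 of 19 G2/M promoters and in 2.79% of all 27305 promoters. The run in MCM6 holds 2 overlapping matches, 1 on each strand. The CHR letters were found in 8 of 19 G2/M promoters (42.1%), in 1 of 22 G1/S promoters and in 13.6% of all promoters. These matches describe letters in a window and not binding. The windows printed are those of the matching genes with the largest differences in each list, with genes on chromosome 8 left out.

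CDC6, which loads the replicative helicase, had log2 levels of 7.60, 7.72 and 7.71 against 9.40, 9.22 and 9.37, a log2 difference of -1.65 or 3.13-fold. MCM10, a replication initiation factor, had 8.10, 8.04 and 7.93 against 9.36, 9.39 and 9.46, a log2 difference of -1.38. GINS1, a subunit of the helicase, had 10.24, 10.32 and 10.25 against 11.63, 11.46 and 11.56, a log2 difference of -1.28. On these 3 genes the low-TACC3 arrays were below every one of the other 18 arrays. UHRF1, which keeps DNA methylation through replication and whose E2F match begins 14 bases before the start, had 10.02, 10.19 and 10.13 against 11.44, 11.21 and 11.37, a log2 difference of -1.23. The helicase subunits MCM6 and MCM7 had log2 differences of -1.18 and -1.08, cyclin E2 (CCNE2) had -1.21, and the ribonucleotide reductase subunit RRM2 had -1.21. The smallest differences of the list belonged to E2F1 at -0.41 and E2F2 at -0.45.

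Mitotic genes were lower by smaller amounts. AURKB, a mitotic kinase, had log2 levels of 7.99, 7.96 and 8.08 against 8.98, 8.97 and 9.05, a log2 difference of -0.99. MAD2L1, of the spindle checkpoint, had 10.21, 10.19 and 10.17 against 11.23, 11.04 and 11.21, a log2 difference of -0.97. CDK1, the kinase that drives entry into mitosis and whose CHR match is shown above, had 11.03, 11.08 and 11.09 against 12.12, 11.85 and 11.98, a log2 difference of -0.92. All 3 genes were lower on the low-TACC3 arrays than on any of the other 18. BUB1B, MKI67, PLK1 and TOP2A had log2 differences of -0.85, -0.85, -0.79 and -0.76, and BIRC5 the smallest of the list at -0.57. For AURKB and BUB1 the mean of all probe sets gave -0.59 and -0.44, and the probe sets of BUB1 disagreed in sign.

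Regulators upstream of S phase did not follow 1 direction. Of 14 D-type cyclins, their kinases, CDK inhibitors and pocket proteins, 5 were lower and 4 higher without overlap, with a median log2 difference of 0.03. CDKN1A, the inhibitor p21, had log2 levels of 10.20, 10.22 and 10.31 against 9.76, 9.86 and 9.86, a log2 difference of 0.42. CDK4 had -0.43 and CCND1, cyclin D1, had -0.38, which was -0.62 as the mean of all probe sets. CDK6 had 0.43, or 0.13 as that mean, and its probe sets disagreed in sign. The levels of CDKN1B, the inhibitor p27, overlapped, with a log2 difference of 0.13.

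Lipid synthesis genes were lower with low TACC3 as well. Of 17 cholesterol synthesis and uptake genes, 14 were lower and 3 higher without overlap, with a median log2 difference of -0.51, and only INSIG1 was lower at least 2-fold. Of 13 fatty acid genes, 9 were lower and 0 higher without overlap, with a median of -0.39, and only SCD was lower at least 2-fold. SREBP factors act at these promoters together with NF-Y, and promoter windows of the cholesterol genes are shown for that reason. NF-Y's letters were searched as CCAAT and those of the sterol response element as TCACCCCAC, on both strands. The windows have 80 bases, with every CCAAT, or its reverse complement ATTGG, in capitals.
INSIG1, chr7:155297670-155297749, plus strand: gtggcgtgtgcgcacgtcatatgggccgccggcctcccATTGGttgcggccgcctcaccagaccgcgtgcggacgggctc
MSMO1, chr4:165327589-165327668, plus strand: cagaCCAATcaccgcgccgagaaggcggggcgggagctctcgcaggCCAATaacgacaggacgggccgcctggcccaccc
FDPS, chr1:155308777-155308856, plus strand: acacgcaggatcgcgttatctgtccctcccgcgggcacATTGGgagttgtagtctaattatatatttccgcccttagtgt

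The CCAAT letters were found in 15 of 17 cholesterol promoters (88.2%) and in 5 of 12 fatty acid promoters (41.7%), against 33.0% of all promoters. They were also found in 16 of 19 G2/M promoters (84.2%) and 14 of 22 G1/S promoters (63.6%), so they do not set the lipid genes apart. The sterol response element letters were found in 1 of 17 cholesterol promoters and in 0.348% of all promoters. An absent match says only that these letters are not in this window.

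SCD, which desaturates stearoyl-CoA, had log2 levels of 10.69, 10.90 and 10.80 against 12.56, 12.49 and 12.47, a log2 difference of -1.71 or 3.28-fold. INSIG1, which holds SREBP in the endoplasmic reticulum when sterols are plentiful, had 10.02, 10.14 and 10.21 against 11.42, 11.10 and 11.24, a log2 difference of -1.13. IDI1, an isomerase of the isoprenoid pathway, had 10.99, 11.02 and 11.10 against 11.99, 11.99 and 12.06, a log2 difference of -0.97. SCD, INSIG1 and IDI1 separated the sets completely. The sterol oxidase MSMO1 and the prenyl synthase FDPS had log2 differences of -0.92 and -0.83, and HMGCS1 and DHCR7 had -0.76 and -0.73. The 3 members higher without overlap were SC5D at 0.28, TM7SF2 at 0.24 and PMVK at 0.20.

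FASN, fatty acid synthase, had log2 levels of 10.44, 10.69 and 10.46 against 11.39, 11.52 and 11.47, a log2 difference of -0.93. SREBF1, the SREBP gene of fatty acid synthesis, had 9.60, 9.64 and 9.65 against 10.37, 10.41 and 10.47, a log2 difference of -0.79, and ELOVL5, an elongase, had -0.77. SREBF2, the SREBP gene of cholesterol synthesis, differed much less, by -0.13. For IDI1, FASN, SREBF1 and ELOVL5 the mean of all probe sets gave -0.58, -0.49, -0.51 and -0.24. Lipoprotein receptor LRP8 had 7.79, 7.79 and 8.17 against 9.41, 9.22 and 9.42, a log2 difference of -1.43.

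Genes of lipid use split in direction. FABP4, a fatty acid chaperone and PPARG target, had log2 levels of 11.98 to 12.13 against 13.30, 13.11 and 13.27, a log2 difference of -1.19. Its high-TACC3 levels were above every one of the other 18 arrays, whose highest was 12.76. PDK4, which restrains pyruvate oxidation, had 5.89, 6.30 and 6.23 against 4.90, 5.17 and 4.59, a log2 difference of 1.25, or 0.39 as the mean of its probe sets, which disagreed in sign. Of the 12 PPARG and lipid-handling genes, 4 were lower and 3 higher without overlap, and PPARG itself overlapped, with a log2 difference of 0.04. Of 7 sterol efflux genes, MYLIP and LPCAT3 were higher and APOE lower without overlap, against 21.8% higher and 14.2% lower of all genes. The probe sets of APOE disagreed in sign. MYLIP, which degrades lipoprotein receptors, had a log2 difference of 0.58.

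The largest difference of all genes was that of MMP1, a collagenase. It had log2 levels of 6.13, 5.93 and 5.96 against 9.72, 9.40 and 9.63, a log2 difference of -3.58 or 11.9-fold. PLAT, tissue plasminogen activator, had 10.48, 10.50 and 10.43 against 12.47, 12.39 and 12.44, a log2 difference of -1.97. MMP10, stromelysin-2, had 6.85, 6.76 and 7.13 against 8.70, 8.58 and 8.71, a log2 difference of -1.74. These 3 genes were far apart between the sets, with SD of 0.20 or less in each. Of 17 proteases and matrix genes, 7 were lower and 3 higher without overlap, with a median of -0.17. The shares of all genes were 14.2% lower and 21.8% higher without overlap. In the list the 3 higher genes were the protease inhibitors TIMP2, TIMP3 and TIMP1. TIMP2 had 11.83, 11.79 and 11.72 against 11.10, 11.00 and 11.13, a log2 difference of 0.70. The urokinase receptor PLAUR had -0.65, while its ligand PLAU overlapped, at -0.05, as did MMP9, at -0.04.

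Among the other genes with the largest lower values, LOXL1, which cross-links elastin, had log2 levels of 8.56, 8.68 and 8.62 against 10.26, 10.25 and 10.34, a log2 difference of -1.66. The calcium-binding protein S100A2 had 11.23, 11.34 and 11.39 against 12.96, 12.84 and 12.95, a log2 difference of -1.60. MICB, a stress ligand seen by natural killer cells, had 8.19, 8.05 and 8.30 against 9.66, 9.48 and 9.71, a log2 difference of -1.44. High-TACC3 levels of MICB were above those of all other 18 arrays, whose highest was 9.04. SLCO4A1, an organic anion transporter, and MAMDC2 had log2 differences of -1.56 and -1.67. For some genes the whole selection stood apart. C16orf54 had log2 levels of 4.87 to 5.26 against 7.53, 7.06 and 7.21, a log2 difference of -2.22, while the other 18 arrays were at 10.55 to 11.69. The thrombin receptor F2R had a log2 difference of -1.77, with 7.52 to 7.66 against 9.28 to 9.45 and 10.16 to 11.81 on the other 18. The mean of all probe sets gave -0.91 for F2R and -0.79 for SLCO4A1.

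Genes of urothelial differentiation were mostly higher with low TACC3. Of 17 luminal genes, 11 were higher and 2 lower without overlap, with a median log2 difference of 0.39, and only UPK1A was higher at least 2-fold. UPK1A, a uroplakin of the umbrella cell surface, had log2 levels of 12.84, 12.73 and 12.97 against 11.36, 11.25 and 11.29, a log2 difference of 1.54. KRT20, the umbrella cell keratin, had 6.87, 7.02 and 7.45 against 6.24, 6.17 and 5.98, a log2 difference of 0.98. GRHL3, a factor of barrier epithelia, had 9.67, 9.74 and 9.76 against 8.86, 8.89 and 8.87, a log2 difference of 0.85. All 3 of these genes were higher on the low-TACC3 arrays than on any other array of the series. UPK2 had 0.66, UPK1B 0.42, ELF3 0.53, FOXA1 0.39 and GATA3 0.32, while KRT18 and TFF3 were lower, at -0.32 and -0.17.

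The basal keratins did not mirror the luminal genes. Of 12 basal genes, 5 were lower and 5 higher without overlap, with a median log2 difference of -0.04. KRT5 had log2 levels of 10.24, 10.46 and 10.45 against 11.23, 11.30 and 11.28, a log2 difference of -0.89. Its partner KRT14 was higher, at 7.38, 7.34 and 7.37 against 6.32, 6.35 and 6.37, a log2 difference of 1.02, and KRT15 had 0.78. LAMB3, a laminin chain of the hemidesmosome, had 0.89, whereas its integrin receptor ITGB4 had -0.49.

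Several other genes with large higher values were of mixed kinds. SCNN1B, a subunit of the epithelial sodium channel, had log2 levels of 10.68, 10.65 and 10.63 against 8.83, 8.83 and 8.91, a log2 difference of 1.80. CLDN8, a tight junction claudin, had 11.50, 11.61 and 11.64 against 9.87, 9.62 and 9.94, a log2 difference of 1.78. ID2, an inhibitor of bHLH factors, had 10.84, 10.71 and 10.75 against 9.21, 9.30 and 9.43, a log2 difference of 1.46. The low-TACC3 levels of these 3 genes exceeded those of all other 18 arrays. SELENOP, a secreted selenium carrier, had 9.98, 9.92 and 9.98 against 7.41, 7.17 and 7.25, a log2 difference of 2.68. The mean of its probe sets gave 1.04. PDE8B, a cyclic AMP phosphodiesterase, had 1.81, the mucin MUC15 had 1.58, and complement factor D (CFD) had 1.46. CRISP3, a secreted cysteine-rich protein, had 2.19 and DAPL1 had 1.55. IGH had 2.05 on its brightest probe set, but its probe sets disagreed in sign and their mean gave 0.58. FAM171B had 1.45, or 0.57 as the mean of its probe sets.

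Interferon-stimulated genes were higher as well. Of 18 members, 14 were higher and 2 lower without overlap, with a median log2 difference of 0.44, and IFI44 and IFIT1 were higher at least 2-fold. IFI44 had log2 levels of 7.72, 7.75 and 7.85 against 6.87, 6.66 and 6.48, a log2 difference of 1.10. IFIT1, which binds foreign RNA ends, had 8.28, 8.34 and 8.24 against 7.22, 7.25 and 7.21, a log2 difference of 1.06. MX2, an antiviral GTPase, had 10.34, 10.42 and 10.51 against 9.41, 9.48 and 9.40, a log2 difference of 0.99. In IFI44 both sets were below the other 18 arrays (7.92 to 9.16), whereas in MX2 the low-TACC3 set was above them (8.90 to 9.83). Averaged over the list, log2 levels were 8.40 to 8.47 on the low-TACC3 and 7.99 to 8.05 on the high-TACC3 arrays. Both were below the other 18 arrays, at 8.67 to 9.25. BST2 and IRF9 had 0.69 each, and the 2 lower members were OAS3 at -0.54 and OAS1 at -0.19. TRIM22, an interferon-inducible gene outside the list, had 8.78, 8.71 and 8.63 against 6.46, 6.36 and 6.03, a log2 difference of 2.42.

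Antigen presentation genes differed by less. Of 11 MHC class I genes, 9 were higher and 0 lower without overlap, 0 of them 2-fold, with a median log2 difference of 0.24. HLA-E had log2 levels of 11.85, 11.83 and 11.95 against 11.41, 11.41 and 11.50, a log2 difference of 0.43, and the immunoproteasome subunit PSMB9 had 0.47. HLA-B and B2M had 0.28 and 0.09. VTCN1, the inhibitory ligand B7-H4, had 8.20, 8.18 and 8.27 against 6.66, 6.45 and 6.46, a log2 difference of 1.70. BLNK, a signalling adaptor best known from B cells, had 7.77, 7.56 and 7.78 against 6.44, 5.94 and 6.06, a log2 difference of 1.55.

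NF-kappaB cytokine genes had no common direction. Of 18, 4 were lower and 3 higher without overlap, with a median of -0.07, against 14.2% lower and 21.8% higher of all genes. NFKBIA, the inhibitor of NF-kappaB, had a log2 difference of 0.58 on its brightest probe set and 0.23 as the mean of probe sets that disagreed in sign. NFKBIZ, a nuclear member of the same family, had log2 levels of 11.36, 11.27 and 11.42 against 11.93, 11.72 and 11.72, a log2 difference of -0.44. CXCL8 and IL6 overlapped, at 0.06 and -0.06.

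Growth and metabolic genes showed smaller shifts. Of 14 ribosome biogenesis genes, 9 were lower and 1 higher without overlap, with a median log2 difference of -0.18. NOP58, a core protein of small nucleolar ribonucleoproteins, had log2 levels of 11.06, 11.20 and 11.22 against 11.72, 11.56 and 11.61, a log2 difference of -0.47. NOB1, which trims the small subunit's RNA, was the 1 higher member, at 0.27. Of 19 nuclear genes of the respiratory chain, 1 was lower, 5 higher and 13 overlapping, with a median of -0.02. Among all genes 14.2% were lower and 21.8% higher without overlap. Of 23 glycolysis and hypoxia genes, 11 were lower and 4 higher without overlap, with a median of -0.07. LDHA, lactate dehydrogenase A, had 12.59, 12.70 and 12.66 against 13.21, 13.15 and 13.24, a log2 difference of -0.55, and PKM and ENO1 had -0.50 and -0.40. NDRG1 and PFKFB3, which are induced by low oxygen, were higher instead, at 0.71 and 0.67.

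Of 20 ATF4 and amino acid genes, 10 were lower and 2 higher without overlap, with a median log2 difference of -0.11. SLC7A11, the cystine transporter, had a mean log2 level of 6.75 (SD 0.22, n = 3) against 8.13, 7.85 and 8.07, a log2 difference of -1.27, and was the 1 member lower at least 2-fold. The serine enzyme PSAT1 and the mitochondrial folate enzyme MTHFD2 had -0.73 and -0.72. ATF4 itself was slightly higher, at 0.13, and the other higher member was DDIT4, at 0.43.

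FOXO-responsive genes leaned to higher values. Of 17, 9 were higher and 2 lower without overlap, with a median log2 difference of 0.18, and PDK4 and PIK3IP1 were higher at least 2-fold. PIK3IP1, an inhibitor of PI3 kinase, had log2 levels of 9.98, 9.88 and 10.03 against 8.74, 8.90 and 8.89, a log2 difference of 1.12. FBXO32, a ubiquitin ligase of muscle wasting, had a mean of 9.09 (SD 0.08, n = 3) against 8.24, 8.27 and 8.15, a log2 difference of 0.87. The means of all probe sets gave 0.56 for PIK3IP1, 0.50 for FBXO32 and 0.39 for PDK4, whose probe sets disagreed in sign. Of 14 BCL2 family genes, 5 were higher and 2 lower without overlap, against 21.8% higher and 14.2% lower of all genes. The BCL2 family members with the largest differences were the BH3-only genes PMAIP1, at -0.42, and BIK, at 0.38. MCL1 overlapped, at -0.03.

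**Figure D3:**
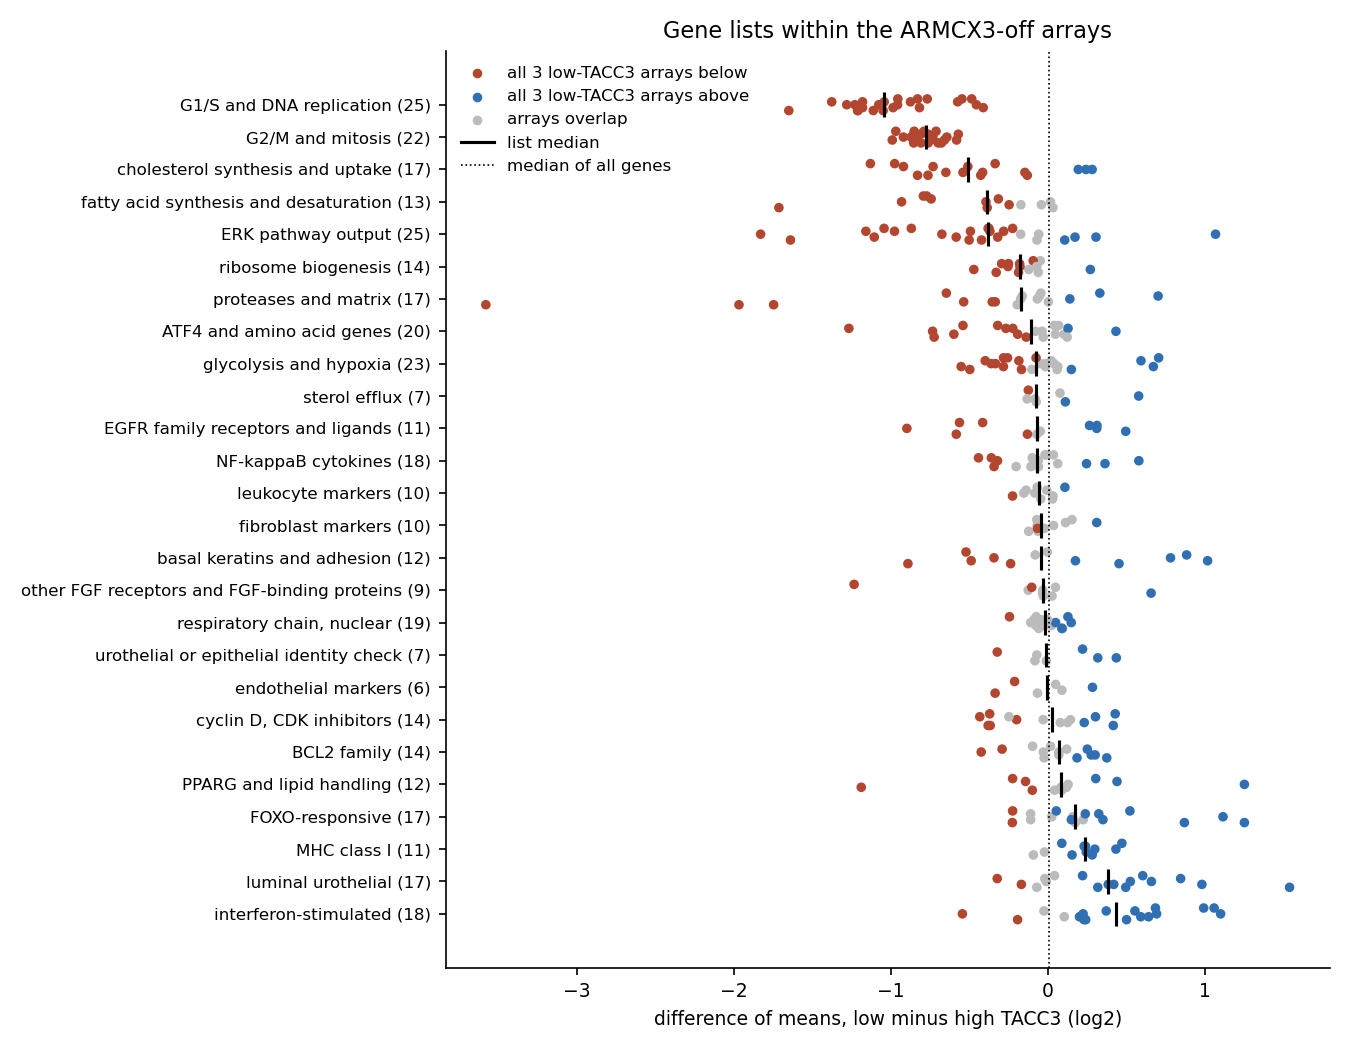
Log2 difference (low minus high TACC3) of every measured member of each gene list, 1 point per gene, coloured by whether the sets overlapped, with the list's median as a bar and the median of all genes as a dotted line. G1/S and G2/M genes all lie below 0, with medians of -1.04 and -0.77, and luminal and interferon-stimulated genes lie mostly above 0, with medians of 0.39 and 0.44.

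The same TACC3 threshold also divided other arrays of the series. Of the 18 arrays outside the selection, 6 stood apart by GAS1, a growth-arrest gene, whose brightest probe set was at 8.52 to 9.47 there, and 6 by the brighter FGFR3 probe set, at 11.13 to 11.43. Each of these sets held 3 arrays below and 3 above the TACC3 threshold of 11.6, and they were defined after their values were seen. Between their arrays with low and high TACC3, 3799 genes (19.2%) were lower and 2800 (14.2%) higher without overlap in the GAS1-high set. In the FGFR3-low set 4138 (20.9%) were lower and 4772 (24.1%) higher. The name FGFR3-low refers to the brighter probe set only. On the dimmer FGFR3 probe set the 3 high-TACC3 arrays of that set, at 11.03 to 11.20, were the highest of all 24. All splits used the same gene, so agreement among them is not independent support.

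Most genes with 2-fold differences leaned the same way in these sets. Of the 93 lower genes, 89 were lower without overlap in the GAS1-high set and 79 in the FGFR3-low set, with median log2 differences of -0.58 and -0.48 there against -1.18 here. Of the 61 higher genes, 57 and 59 were higher without overlap, with medians of 0.89 and 1.38 there against 1.25 here. The 3 lower genes that were higher without overlap in the FGFR3-low set were ANKRD36B, HELLS and MYBL1, named after their values were seen. At least 2-fold and without overlap in both, 22 lower genes were shared with the GAS1-high set, 23.7% of those here and 46.8% of the 47 there, and 20 higher genes, 32.8% of those here and 62.5% of the 32 there. With the FGFR3-low set the shared genes were 27 lower, 29.0% of those here and 32.9% of the 82 there, and 44 higher, 72.1% and 26.8% of the 164 there.

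The lists differed in size of shift between the sets of arrays. G1/S genes had a median log2 difference of -1.04 here, -0.41 in the GAS1-high set and -0.40 in the FGFR3-low set, and G2/M genes had -0.77, -0.28 and -0.09. Cholesterol genes ran the other way in size, with medians of -0.51, -0.80 and -0.79, as did fatty acid genes, with -0.39, -0.76 and -0.77. Genes of ERK output had similar medians of -0.38, -0.39 and -0.33. Of single genes, CDC6 had log2 differences of -1.65, -0.85 and -0.98, CDK1 had -0.92, -0.19 and -0.05, FABP4, of the PPARG and lipid-handling list, had -1.19, -2.26 and -2.98, and DUSP6 had -1.83, -1.63 and -1.92. KRT14 and BLNK, at 1.02 and 1.55 here, had 0.04 and 0.10 in the GAS1-high set and -0.20 and 0.38 in the FGFR3-low set. The excess of 3′ over 5′ ACTB signal differed by 0.26, 0.08 and 0.21 and that of GAPDH by 0.11, 0.07 and 0.10 between low and high TACC3 in the 3 sets. TACC3 itself differed by -1.27, -0.78 and -1.18. None of these differences between sets was tested, because all sets were chosen on measured values.

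**Figure D4:**
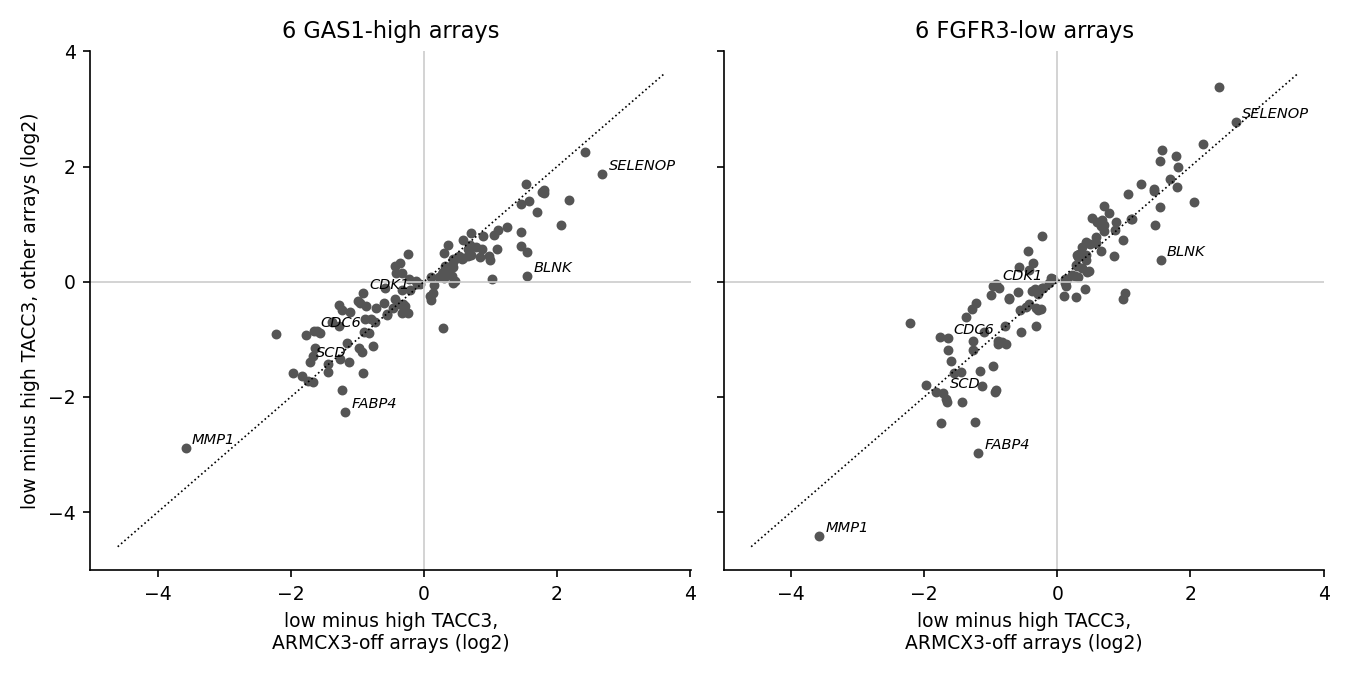
Log2 difference between low-TACC3 and high-TACC3 arrays in the 6 ARMCX3-off arrays (x axis) against the same difference in the GAS1-high and FGFR3-low sets of 6 arrays (y axes), 1 point per described gene, with the line of equal values. MMP1 lies far out on both axes in both panels, at -3.58 here and -2.89 and -4.41 there, while CDK1 lies near 0 on the y axes, at -0.19 and -0.05.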

How the data were processed

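Biotin-labelled RNA from 24 RT112 samples was hybridised to Affymetrix 3′ expression arrays. The deposited values are log2 levels of 54675 probe sets, which the submitters' processing notes link to RMA and the affy package, with versions not given in the sources used here. RMA summarises probes and quantile-normalizes arrays, which removes shifts shared by most genes. Array medians ran from 6.98 to 7.08, and the number of arrays, not a read depth, limits the precision.

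Gene names came from GEO's annotation of the platform: 41097 had 1 symbol, and 1801 with several and 11777 with none were left out. Of the named ones 41043 matched RefSeq's GRCh38.p14 gene table. The probe set with the highest mean over 24 arrays stood for each of 19775 genes. Dim genes were kept.

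The arrays were selected on ARMCX3 and split on TACC3, so values between the sets were described by non-overlap and a 2-fold difference, with no test. The labelled comparison was fitted with limma 3.58.1 in R 4.3.3 over 8 groups (16 residual degrees of freedom, Benjamini-Hochberg adjusted p-values, threshold 0.05). Both steps were run on simulated data with planted changes and independent noise. That checks the code and not the counts here, since the real arrays fall into like sets across the labels. Described genes were FGFR3, TACC3 and ARMCX3, the 15 largest differences each way among non-overlapping 2-fold genes with a mean of at least 6, and up to 4 non-overlapping members of each of 27 lists (379 of 422 genes measured). Other members are given as examples of their lists. Members and lists were chosen with earlier results of these data known.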

Additional observations from a re-analysis of the deposited data

Results flagged for a closer look

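Some described genes were wholly on one side with low TACC3 in the ARMCX3-off arrays and wholly on the other side in another set of 6 arrays split at the same TACC3 threshold. The difference between the sets was not tested for any of them, and all sets were chosen on measured values. All values not called levels are log2 differences, low minus high TACC3.

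EGFR had -0.58 in the ARMCX3-off arrays and 0.26 in the FGFR3-low arrays. CDKN1A, the inhibitor p21, had 0.42 and -0.13 in these sets. KRT20, the umbrella cell keratin, had 0.98 and -0.30. Its mean log2 levels in the FGFR3-low arrays were dim, at 5.38 with low and 5.68 with high TACC3. PMAIP1, a BH3-only gene, had -0.42 and 0.20, and the cytokine gene IL1A had -0.36 and 0.32. These are values of the brightest probe set. The mean of all probe sets in the ARMCX3-off arrays was -0.26 for EGFR and -0.08 for IL1A, whose probe sets disagreed in sign, at -0.36 and 0.21.

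In the GAS1-high arrays LPCAT3, a phospholipid acyltransferase, had -0.31 against 0.11 in the ARMCX3-off arrays, and COX5B, of the respiratory chain, had -0.19 against 0.13, or 0.04 as the mean of probe sets that disagreed in sign. Another respiratory chain gene, NDUFA1, had 0.09 in the ARMCX3-off arrays and -0.25 in both other sets. NFKBIZ had -0.44 in the ARMCX3-off arrays, 0.27 in the GAS1-high and 0.53 in the FGFR3-low arrays. CDH5, an endothelial cadherin, had 0.29, -0.80 and -0.27 in that order of sets.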

How the results depend on the processing

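The counts of genes without overlap and at least 2-fold apart depended on the fold and on the choice of probe set. At 1.5-fold they were 384 lower and 355 higher genes, against 93 and 61 at 2-fold. With the mean of all probe sets of a gene they were 76 and 37, with each array's median subtracted 87 and 68, and with only genes at a mean of 6 or more 93 and 55. Leaving out 1 of the 6 arrays gave 86 to 116 lower and 60 to 73 higher genes. Of 121 described genes, 36 moved by over 1.5 times with the mean of all probe sets and 0 changed sign. Single probe sets agreed less. Of the 67 described genes with several probe sets, all probe sets had the same sign in 51. All were in the same order (lower, higher or overlapping) in 31. Of the list medians, the sign changed for sterol efflux, at 0.077 with that mean and from -0.094 to 0.0061 with 1 array left out (the last without hairpin 6-16 with doxycycline, replicate 2), against -0.07, and with that mean for BCL2 family genes, at -0.020, and fibroblast markers, at 0.013. Under some alternatives the medians nearest 0 also changed sign, those of the cyclin D, respiratory chain, epithelial and endothelial lists, and those of the other lists did not. Limma called 0 genes for the doxycycline label with the replicate block, with array weights, with the mean of all probe sets, with the filter at a mean of 6, and with each of 24 arrays left out. The replicate numbers did not clearly pair the arrays. Deviations from the means of the labelled groups were correlated between arrays of different groups. With the same number these correlations ran from -0.73 to 0.88 (median 0.127), and with different numbers from -0.805 to 0.836 (median -0.015). Of 24 arrays, 12 correlated best with an array of their own number, so some pairing remains possible. Sets of 3 arrays chosen on their values allow no test, and RMA gives no depth.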

Other observations

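Further genes with 2-fold differences, chosen after their values were seen, are given as values. COL4A1 and COL4A2, the paired collagen IV chains of basement membranes, had log2 differences of -1.40 and -1.32. COL4A2 had 7.53, 7.41 and 7.57 on the low-TACC3 and 8.79, 8.80 and 8.87 on the high-TACC3 arrays, and was at 9.86 to 10.95 on the other 18. SULF2, which edits heparan sulfate, had -1.40, and NT5E, the ectonucleotidase CD73, had -1.23. Of the S-phase genes outside the lists, E2F7 had -1.36, the cohesin acetyltransferase ESCO2 had -1.38, DTL had -1.32 and the checkpoint kinase CHEK1 had -1.28.

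Among higher genes, SCNN1G, another subunit of the epithelial sodium channel, had log2 levels of 10.42, 10.56 and 10.58 against 9.35, 9.19 and 9.45, a log2 difference of 1.19. ID4, a relative of ID2, had 8.84, 8.82 and 9.01 against 7.45, 7.37 and 7.60, a log2 difference of 1.42. BMP2, a ligand, and BAMBI, a decoy receptor of the same family of signals, had 1.20 and 1.19. The mitochondrial carrier UCP2 had 11.92, 12.01 and 11.91 against 10.62, 10.76 and 10.90, a log2 difference of 1.19, and its low-TACC3 levels exceeded those of all other 18 arrays, whose highest was 10.75. IL1R1, the interleukin-1 receptor, had 1.32 and MYCL, a MYC relative, had 1.25.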
